A study of Mus musculus with 2 samples.

Results

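The 10 genes described here, Trp63, Klf4, Klf5, Grhl1, Grhl2, Grhl3, Ovol1, Tfap2a, Tfap2c and Zfp750, encode transcription factors that specify the epidermis and drive its stratification. They were taken as a list of known regulators and not filtered by any measured value, though earlier results of these data were known when they were chosen. They are 10 of the 16181 protein-coding genes with an open promoter in both libraries. Every open chromatin region within 500 bp of a start site of one of these genes, inside its body or within 50 kb of it was used, which gave 407 of 369634 merged regions. In MOF cKO epithelial-like cells 9 of the 10 promoters were less open than in Control, as were 84.8% of all promoters. The amount was close to that of promoters in general, and the largest loss was at Trp63. The distal regions of the same genes moved in both directions, with 20.8% at least 2-fold more open (18.6% of all distal regions) and 10.4% at least 2-fold less open (13.9% of all), near the background.

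The transcription factor p63, encoded by Trp63, keeps the basal layer of stratified epithelia, and in the epidermis most of it is the ΔN form made from a promoter inside the gene. AP-2α and AP-2γ (Tfap2a and Tfap2c) act beside it in the early epidermis, and Klf5 acts in proliferating basal cells. Klf4, the GRHL factors, Ovol1 and Zfp750 take cells from the basal layer into differentiation and barrier formation. Open chromatin, read by the cuts of the Tn5 transposase, marks promoters and enhancers to which such factors can bind, and MOF (Kat8) is an acetyltransferase that places the H4K16ac mark on histones.

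Back skin was taken from E16.5 mouse embryos, and there was 1 single-cell ATAC-seq library from Control and 1 from MOF cKO skin of the genotype MOFfl/fl/K14Cre. In the latter the Krt14-driven Cre recombinase deletes the floxed MOF gene in epithelial cells and is not expected to act in dermal cells. The mice were of a mixed C57Bl/6J and CD-1 background by the study's methods, and the study's controls were wild-type or heterozygous littermates. Which of these genotypes the Control library had, and whether a library came from a single embryo, was not given in the sources used here. Both libraries carried the K14-H2BGFP reporter, by which GFP-positive (epithelial) and GFP-negative cells were sorted before mixing, 5 to 1 by the sample descriptions, while the study's own text gives other ratios. With 1 library per genotype no difference was tested, and genotype cannot be told apart from embryo, sort or library preparation. Each interval below is a 95% interval. Those of levels, shares of sites and changes cover counting error only, and those of motif shares treat the regions as independent draws.

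The libraries held 169641002 and 324310197 cut sites in 2541 and 4348 barcodes, and 21 barcode sequences occurred in both. Clusters with at least 3 markers of a class gave 1696 Control and 2644 MOF cKO epithelial-like cells, with 7 to 9 of 11 epithelial markers 2-fold up in each cluster, and 659 and 1252 fibroblast-like cells. The epithelial-like clusters came almost wholly from one library each. The exceptions were 26 MOF cKO cells in cluster 5, 7 in cluster 1, 6 in cluster 11 and 5 in cluster 9, all otherwise of Control, and 1 Control cell in cluster 3, so subtypes were not matched between genotypes. A shallow Control cluster (cluster 9, median 2493.5 sites per cell) and a shallow MOF cKO cluster (cluster 15, median 17871) were kept, and leaving both out changed the median over the 10 promoters from -0.43 to -0.44. The promoter of the targeted gene, Kat8, had 50.6 CPM (cut sites per 1e+06 sites in shared regions of the same cells) in epithelial-like cells of Control and 37.9 CPM in those of MOF cKO, which does not check the deletion, since a promoter can stay open upstream of a deleted exon.

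Of the 407 merged regions, 262 had a peak in both libraries (64.4%, against 57.9% of all regions), 43 in Control alone (10.6%, against 8.92%) and 102 in MOF cKO alone (25.1%, against 33.2%). The Trp63 locus, the longest, held 78 of them, and Zfp750 the fewest, 23. The MOF cKO library was the deeper one, and its part in the number of peaks called was not tested. All levels below come from the 262 shared regions, of which 18 lay at promoters, 192 were distal (over 2000 bp from any annotated start site) and 52 lay in between.

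Promoter accessibility was counted as CPM of the promoter regions of a gene, and per kb of region where genes are compared. In Control epithelial-like cells Klf5 was the most open at 69.7 CPM per kb, followed by Klf4 at 50.5, Grhl1 at 43.6 and Grhl3 at 39.4. Tfap2c (26.4), Tfap2a (26.1) and Ovol1 (25.9) could not be separated by their counting intervals, nor could Trp63 (14.3), Zfp750 (13.9) and Grhl2 (13.4). Trp63 and Grhl2 were low on this scale because they also have weak start sites, whose regions add width but few cut sites. In MOF cKO the order ran from Klf5 at 48.9 to Trp63 at 6.77 CPM per kb, the lowest of the 10.

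**Figure D1:**
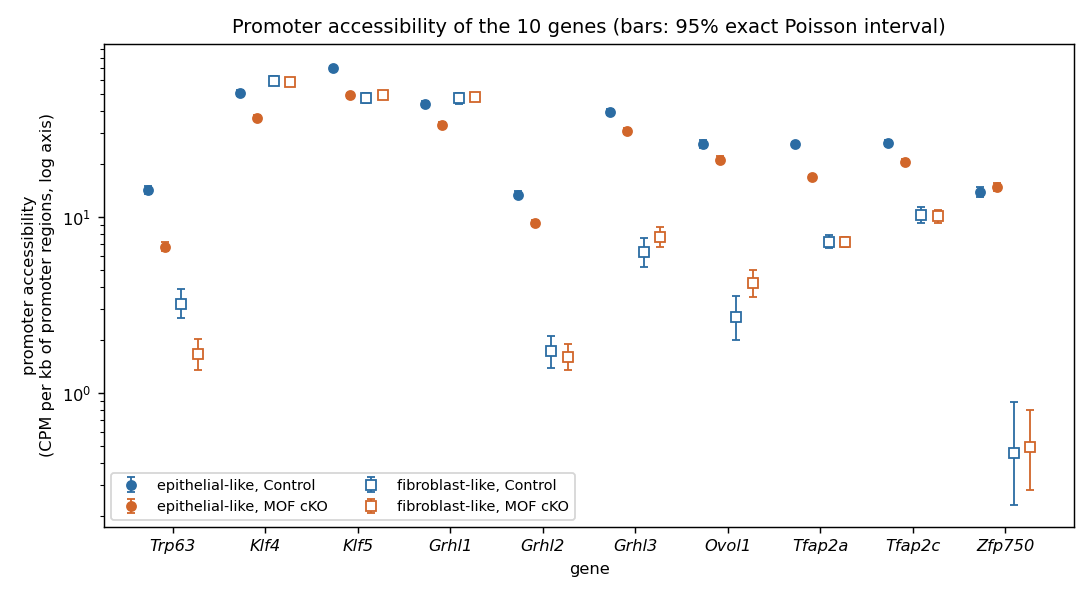
Promoter accessibility of each gene in CPM per kb of its promoter regions (log axis), for Control (blue) and MOF cKO (orange), in epithelial-like (filled circles) and fibroblast-like cells (open squares), with 95% exact Poisson intervals. The epithelial-like MOF cKO point lies below the Control point for every gene but Zfp750, and the classes lie closest together at Klf4, Klf5 and Grhl1, with epithelial-like over fibroblast-like ratios of 0.626 to 1.47.

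Over the 10 promoters the median change, log2(MOF cKO / Control), was -0.43 in epithelial-like cells, and over all 16181 promoters it was -0.40. The 9 lower promoters stand against 84.8% of all promoters lower at any size, so the count was near the background. At 2-fold, 1 of the 10 was lower (2.31% of all promoters) and 0 were higher (2.29%). Scaling to the sites in each library's own full peak list, to median-of-ratios factors or to cells moved the median of all promoters to -0.55, -0.25 and -0.23, and the members moved with it (-0.58, -0.27 and -0.25). Relative to all promoters the members' median was -0.03. The 1 gene past 2-fold was Trp63, at -1.22 with each library's own full peak list, -0.92 with median-of-ratios factors and -0.89 in sites per cell. This 2-fold call was therefore lost under the last 2 totals. It was also lost with cells thinned to 5000 sites (-0.95, -1.39 to -0.50).

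The largest loss was at Trp63. Its promoter regions held 26.3 CPM in Control (95% interval 24.96 to 27.6) and 12.5 CPM in MOF cKO (11.8 to 13.2), a change of -1.07 (-1.18 to -0.97), and only 1.72% of all promoters lay below it. The gene (ENSMUSG00000022510.14, chr16:25683763-25892102, plus strand, mm10) has start sites 118 kb apart, which were read separately. The internal region, chr16:25801383-25802283, spans the start site of the ΔN transcripts at position 25801916 and went from 2969 to 2510 cut sites, or from 28.1 to 13.5 CPM per kb (-1.06, -1.17 to -0.95). The upstream region, chr16:25683573-25684513, where the longer TA transcripts start, was nearly closed, with 109 sites in Control and 72 in MOF cKO (-1.42, -2.08 to -0.80). The ΔN region held most of the Trp63 promoter sites in both libraries, and both start site regions were lower in MOF cKO.

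Tfap2a, which encodes AP-2α, was the most open of the 10 in total, at 105 CPM in Control and 67.6 CPM in MOF cKO (-0.63, -0.68 to -0.58; 13.04% of promoters lay below). Its 5 promoter regions were all lower, from -0.46 in the third region from the 5′ end to -1.04 in the most 3′ one, and 4 of them also overlap Gm26688, so their cut sites cannot be assigned to one gene. Counting only coding transcripts gave -0.69. Tfap2c (AP-2γ) changed less, from 43.8 to 34.0 CPM (-0.36, -0.44 to -0.29), with -0.53 at its upstream and -0.25 at its second region. Both values were below 0, and that of Tfap2c lay close to the median of all promoters.

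The KLF genes, Klf4 of barrier formation and Klf5 of proliferating basal cells, were both lower, with intervals that overlap. Klf5 had 62.5 CPM in Control and 43.8 CPM in MOF cKO (-0.51, -0.57 to -0.45). Klf4 had 50.1 and 36.2 CPM (-0.47, -0.54 to -0.40). Of all promoters 28.9% lay below Klf5 and 36.8% below Klf4, and the median of all promoters (-0.40) lay outside the interval of Klf5 and inside that of Klf4. Of the 10 genes, the RefSeq promoter table for GRCm38.p6 held Klf4, Grhl1, Grhl3 and Tfap2a, and the 250 bases before the start sites of Klf4 (chr4:55532476-55532725, minus strand) and Grhl3 (chr4:135573633-135573882, minus strand) are shown as 1 example each of a KLF and a GRHL gene with a motif match. Both genes have a single open promoter region, and the window lies inside it for Klf4 and runs to just past its edge for Grhl3. Capitals mark matches to an AP-2 motif, GCCNNNGGC, in Klf4 and to a KLF motif, GGGNGTG on either strand, in Grhl3.
Klf4 promoter: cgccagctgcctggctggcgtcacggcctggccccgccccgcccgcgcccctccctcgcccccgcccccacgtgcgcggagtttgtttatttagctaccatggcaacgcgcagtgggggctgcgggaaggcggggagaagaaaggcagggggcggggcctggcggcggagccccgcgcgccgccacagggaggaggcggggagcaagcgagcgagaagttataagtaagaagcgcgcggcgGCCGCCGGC
Grhl3 promoter: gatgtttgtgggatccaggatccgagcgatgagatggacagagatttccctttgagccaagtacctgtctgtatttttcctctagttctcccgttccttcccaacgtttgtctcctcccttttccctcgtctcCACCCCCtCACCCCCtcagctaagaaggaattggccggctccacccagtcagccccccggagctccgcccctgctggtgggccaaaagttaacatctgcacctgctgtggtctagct
Over all promoters of that table and length, 13.7% held the AP-2 motif and 26.1% the KLF motif, so neither match is unusual.

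Among the grainyhead-like genes, Grhl2, a regulator of epithelial junctions, went from 36.1 to 24.9 CPM (-0.53, -0.62 to -0.45). Most of this came from its main start site region, chr15:37232659-37233508, with 3821 and 4416 sites (-0.61), while the 2 weak internal regions had 173 and 357 sites (0.23, -0.16 to 0.61) and 233 and 388 sites (-0.08, -0.43 to 0.25). Grhl1, which controls desmosomal genes, went from 39.3 to 29.9 CPM (-0.39, -0.47 to -0.31). Grhl3, needed for the skin barrier, went from 36.8 to 28.7 CPM (-0.36, -0.44 to -0.28). Grhl1 and Grhl3 lay near the middle of all promoters, with 52.3% and 58.3% below them.

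The last pair act in cells that leave the basal layer. Ovol1, which restrains progenitor proliferation, went from 24.3 to 19.8 CPM (-0.30, -0.39 to -0.20). Zfp750, an activator of terminal differentiation downstream of p63, had 14.5 CPM in Control and 15.5 CPM in MOF cKO (0.09, -0.03 to 0.22), and 87.7% of all promoters lay below it. The interval for Zfp750 spans 0, but its value depends on the total, at 0.25 (0.13 to 0.37) with median-of-ratios factors, 0.27 (0.15 to 0.40) in sites per cell and -0.05 with each library's own full peak list. Its excess over the median of all promoters, which moves with the total in the same way, is larger than the counting error. Its start site region also overlaps Tbcd, and its cut sites cannot be assigned to one gene.

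The spread between clusters gives a scale for these differences, though clusters of 1 library are not replicates. In the 5 epithelial-like clusters with at least 500 cells of one library, Trp63 had 29.8 and 25.7 CPM in Control clusters 1 and 5, and 11.5, 15.8 and 10.3 CPM in MOF cKO clusters 0, 2 and 3. For 8 of the 10 genes each of the 3 MOF cKO clusters was below both Control clusters, which also held for 66.5% of all promoters. The reverse held for 0 of the 10 (6.43% of all). The exceptions were Ovol1, with 23.1 and 27.7 CPM in Control against 16.7, 18.6 and 26.8, and Zfp750, with 15.2 and 16.2 against 13.1, 15.002 and 20.7. For both genes cluster 3 was the highest of the 3 MOF cKO clusters. Cluster 5 was the one epithelial-like cluster with at least 20 cells of both libraries. Its 26 MOF cKO cells had 20.8 CPM at Trp63, 103 at Tfap2a and 56.9 at Grhl3, and its 522 Control cells 25.7, 109 and 41.3. These 26 cells lay above all 3 large MOF cKO clusters at 9 of the 10 genes, which held for 60.8% of all promoters. The exception was Zfp750, at 6.70 CPM, below those clusters and below the 16.2 CPM of the Control cells of cluster 5. Among small clusters the order was looser. Cluster 15 of MOF cKO, with 67 cells, was above each of the 4 Control clusters at 6 of the 10 genes, which held for 34.2% of all promoters. These were Klf4 (91.9 CPM), Grhl2 (70.3), Ovol1 (43.4), Tfap2a (119.6), Tfap2c (72.5) and Zfp750 (20.9), whereas Trp63 had 4.48 CPM, the lowest of the epithelial-like clusters. In the shallow Control cluster 9 Grhl3 had 10.3 CPM, against 24.2 to 41.3 in the other Control clusters. The low levels of Trp63 in cluster 15, of Zfp750 in the 26 cells of cluster 5 and of Grhl3 in cluster 9 rest on few cut sites. No interval was computed for them.

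**Figure D2:**
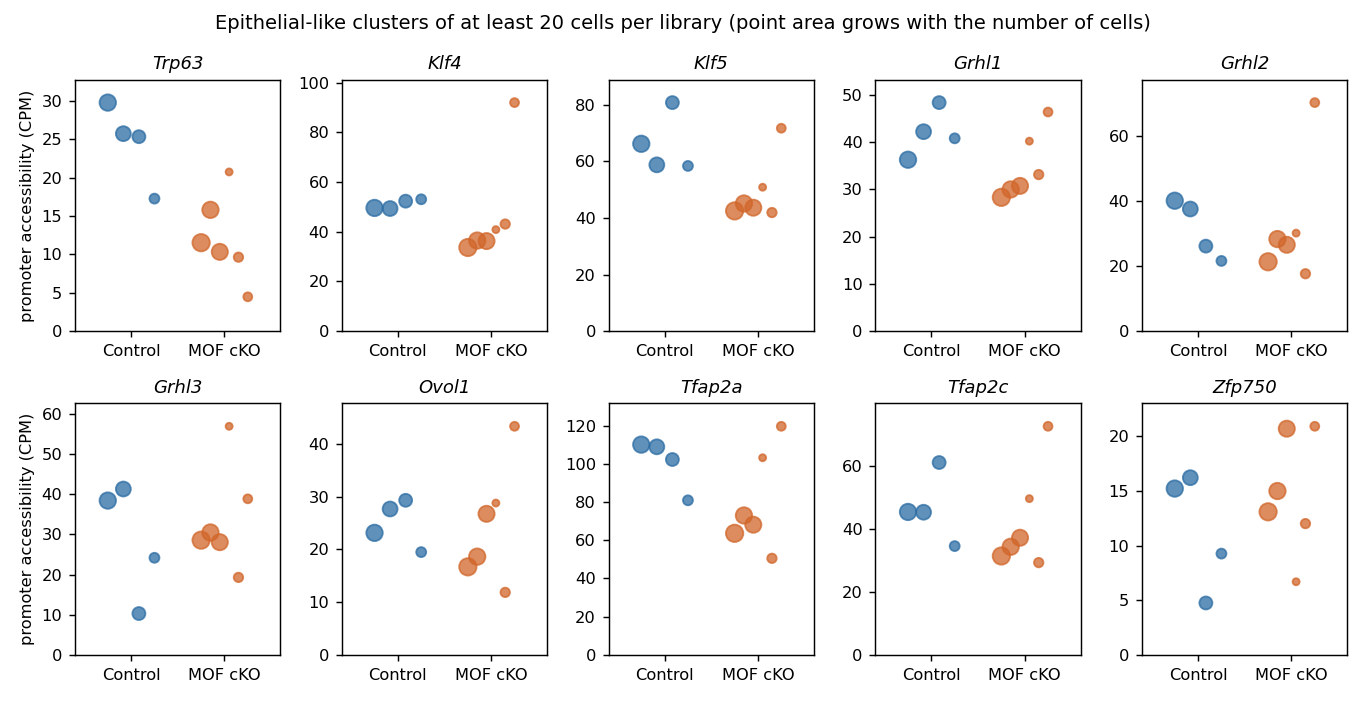
Promoter accessibility (CPM) of each gene in the epithelial-like clusters with at least 20 cells of a library, Control in blue and MOF cKO in orange, with point size growing with the number of cells. For Trp63 the large MOF cKO clusters lie between 10.3 and 15.8 CPM and the large Control clusters at 25.7 and 29.8, while for Zfp750 the libraries overlap.

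Away from the promoters the picture was different. Over the 192 distal regions the median change in epithelial-like cells was -0.04 (-0.10 over all 165639 distal regions), and 98 of 192 were below 0, against 54.4% of all. At least 2-fold higher were 40 regions, or 20.8% (18.6% of all), and at least 2-fold lower were 20, or 10.4% (13.9% of all). Scaled to cells, the split was 47 higher and 13 lower, against 21.8% and 9.78% of all. The shares were near the background in both directions, and what follows describes individual regions. The 40 higher regions lay at all 10 genes and had a median of 1.38 CPM per kb in Control and 6.35 in MOF cKO. The most open of them in Control, at Grhl3, had 5.71 CPM per kb there. The 20 lower regions lay at 8 genes and had medians of 3.39 and 1.27 CPM per kb.

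**Figure D3:**
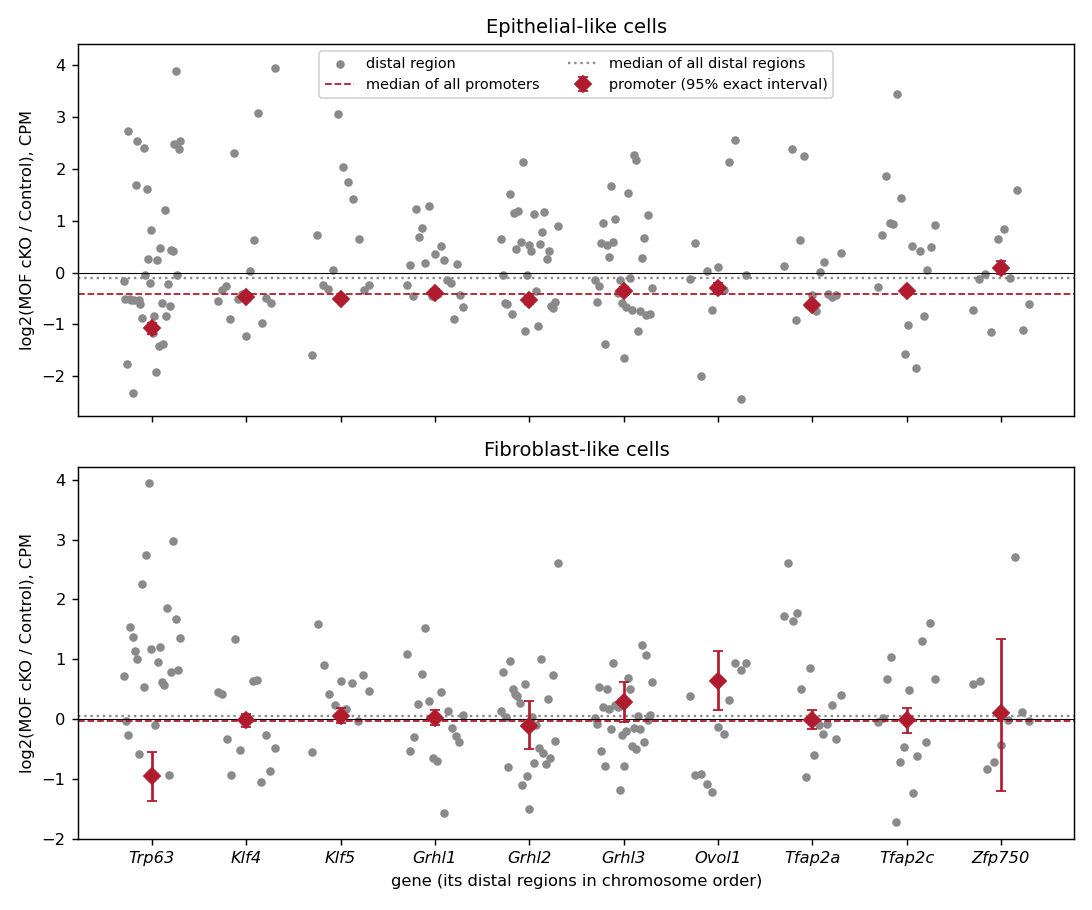
Change in accessibility, log2(MOF cKO / Control) of CPM, of each gene's promoter (red diamonds, with 95% exact intervals) and of each of its distal regions with at least 20 sites (grey points), in epithelial-like cells (top) and fibroblast-like cells (bottom), with the medians over all promoters (dashed) and all distal regions (dotted). In epithelial-like cells the promoters lie in a narrow band from -1.07 to 0.09 while distal regions spread from -2.44 to 4.08, and in fibroblast-like cells many Trp63 regions lie above 1.

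Summed over all distal regions of the genome, accessibility was 0.25 higher in MOF cKO, and over the 192 regions of the 10 genes 0.18 higher (0.17 to 0.19). Gene by gene, the sum was higher in MOF cKO at Klf5 (38.9 and 66.4 CPM, 0.77, 0.70 to 0.84), Tfap2a (59.0 and 94.1 CPM, 0.67, 0.62 to 0.73) and Tfap2c (55.6 and 75.5 CPM, 0.44, 0.38 to 0.50), and this direction held under every scaling tried. For 5 genes, Trp63, Grhl1, Grhl2, Ovol1 and Zfp750, the sum was 0.14 to 0.15 higher, and for Klf4 it was 0.01. These lay below the value for all distal regions and within the shift that the choice of total brings. Scaled to each library's own full peak list, 5 of the 10 sums were above 0 instead of 9. Grhl3 was the one sum below 0, at 219.9 and 213.2 CPM (-0.04, -0.08 to -0.01). The promoter share of the sites counted at a gene, promoter and distal regions together, was lower in MOF cKO at each of the 10. Over all promoter and distal regions pooled it was also lower, at 45.5% (Control) and 35.1% (MOF cKO), so the direction was that of the background. How many of all genes had a lower share was not counted. At Tfap2a the shares were 64.0% (Control) and 41.8% (MOF cKO), at Klf5 61.6% and 39.8%, and at Trp63 10.7% and 4.88%. At Zfp750 it was 20.6% and 19.98%, which the counting intervals do not separate.

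The 5 distal regions with the largest gain, among those with at least 500 sites, were all intergenic or in an intron of another transcript. The first lay 65.6 kb from the 5′ start site of Tfap2a, beyond the 3′ end of the gene (chr13:40672361-40673211), with 83 sites in Control and 2472 in MOF cKO, or 0.832 and 14.04 CPM per kb (4.08, 3.62 to 4.54). The next region towards the gene was also higher (409 and 3773 sites, 2.39) and the one after it lower (650 and 610 sites, -0.91). The second, 46.6 kb upstream of Klf4 in an intron of Gm12511 (chr4:55578581-55579507), had 73 and 1977 sites (3.94, 3.45 to 4.44). The third, beyond the 3′ end of Trp63 and 222 kb from its 5′ start site (chr16:25905179-25906134), had 101 and 2628 sites (3.88, 3.46 to 4.30). In fibroblast-like cells these 3 regions had 2 to 40 sites in each library. The others were at Tfap2c (84 and 1608 sites, 3.44) and 9.34 kb upstream of Klf4 (74 and 1100 sites, 3.07), and the last was also open in fibroblast-like cells, with 159 and 391 sites. The central 300 bases of the first 3 regions, read from GRCm38.p6 on the plus strand, are shown because they carry the largest gains. Capitals mark matches to the AP-1 motif, TGANTCA.
Tfap2a_2: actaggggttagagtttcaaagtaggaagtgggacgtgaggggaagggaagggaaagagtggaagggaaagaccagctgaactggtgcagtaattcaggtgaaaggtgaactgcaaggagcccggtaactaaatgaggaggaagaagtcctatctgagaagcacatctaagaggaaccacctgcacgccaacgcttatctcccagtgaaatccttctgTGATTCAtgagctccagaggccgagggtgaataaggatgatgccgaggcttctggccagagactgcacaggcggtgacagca
Klf4_20: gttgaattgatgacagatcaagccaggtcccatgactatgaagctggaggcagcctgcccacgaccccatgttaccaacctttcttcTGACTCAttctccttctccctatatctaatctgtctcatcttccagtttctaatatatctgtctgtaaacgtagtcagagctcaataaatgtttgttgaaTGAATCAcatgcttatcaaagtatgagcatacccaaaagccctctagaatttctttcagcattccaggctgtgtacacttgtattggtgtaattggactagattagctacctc
Trp63_42: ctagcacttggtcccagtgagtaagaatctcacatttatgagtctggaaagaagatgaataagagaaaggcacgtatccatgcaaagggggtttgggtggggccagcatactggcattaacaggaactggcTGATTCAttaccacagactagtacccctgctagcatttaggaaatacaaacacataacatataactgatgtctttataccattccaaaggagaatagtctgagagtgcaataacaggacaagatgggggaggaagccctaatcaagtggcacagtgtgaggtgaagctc
Each of these windows held an AP-1 match (the one at Klf4 held 2) and none held a GRHL, KLF or AP-2 match.

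The 5 largest losses, again among distal regions with at least 500 sites, were at Ovol1, Trp63, Tfap2c and Grhl3. Some regions with fewer sites fell more. A region 21.5 kb upstream of Ovol1 (chr19:5581716-5582648) went from 391 to 127 sites, or from 3.57 to 0.658 CPM per kb (-2.44, -2.87 to -2.02). Its neighbour, centred 1264.5 bp away, moved the other way, from 110 to 1141 sites (2.55, 2.16 to 2.98). An intronic Trp63 region 142 kb from the 5′ start site (chr16:25825744-25826607) went from 504 to 237 sites (-1.91, -2.23 to -1.58), and a second one, at 149.9 kb, from 853 to 567 sites (-1.41). A region 11.8 kb downstream of the Tfap2c start went from 382 to 188 sites (-1.84), and one in an intron of Grhl3 (chr4:135563386-135564414) from 1912 to 1084 sites, or 15.9 to 5.09 CPM per kb (-1.64, -1.79 to -1.49). Of the 5, the Grhl3 region was the most open in Control. The central 300 bases of 3 of them are shown for comparison with the gains, with capitals for KLF motifs (GGGNGTG or its complement) in the Ovol1 and Grhl3 windows, and for GRHL (AACNNGTT), AP-2 (GCCNNNGGC) and KLF motifs in that order in the Trp63 window.
Ovol1_19: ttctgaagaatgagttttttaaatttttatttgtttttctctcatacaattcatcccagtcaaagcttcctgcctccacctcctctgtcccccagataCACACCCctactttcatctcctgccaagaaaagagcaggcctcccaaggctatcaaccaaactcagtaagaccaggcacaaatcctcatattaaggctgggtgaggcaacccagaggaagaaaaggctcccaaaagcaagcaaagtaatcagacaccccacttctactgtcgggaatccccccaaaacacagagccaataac
Trp63_29: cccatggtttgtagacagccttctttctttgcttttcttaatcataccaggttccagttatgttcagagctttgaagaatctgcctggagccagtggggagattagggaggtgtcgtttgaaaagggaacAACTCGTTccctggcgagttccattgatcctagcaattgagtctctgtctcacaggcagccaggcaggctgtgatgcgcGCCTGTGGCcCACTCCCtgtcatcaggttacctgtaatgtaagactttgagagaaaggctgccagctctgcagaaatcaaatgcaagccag
Grhl3_16: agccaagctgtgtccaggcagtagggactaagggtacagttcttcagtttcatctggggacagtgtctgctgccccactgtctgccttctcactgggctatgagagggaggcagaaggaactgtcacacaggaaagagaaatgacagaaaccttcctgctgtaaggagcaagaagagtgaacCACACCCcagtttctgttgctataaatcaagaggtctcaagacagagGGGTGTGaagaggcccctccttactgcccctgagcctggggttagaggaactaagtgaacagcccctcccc
No window of the 5 held an AP-1 match (6.32% of all distal regions 2-fold lower did), and 4 of the 5 gains held one (58.2% of all 2-fold higher). Of the 5 losses 3 held a KLF match (20.2% of all 2-fold lower) and 2 an AP-2 match (9.49%). These regions were picked as the largest changes and no interval was computed. They therefore cannot show how often a motif occurs in lower or higher regions. Over all 20 lower regions at these genes the shares were 5.0% (AP-1), 25% (KLF) and 35.0% (AP-2). Over all 40 higher regions the AP-1 share was 50%.

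The strongest distal region of each gene in Control was read next, and none of the 10 passed 2-fold. Of all distal regions 13.9% were 2-fold lower and 18.6% 2-fold higher. The regions were picked by the Control level that also enters the ratio, so this count does not measure stability. The most open of all, upstream of Grhl2 (chr15:37197713-37198588), went from 39.4 to 25.9 CPM per kb (-0.61, -0.69 to -0.52). An intronic Trp63 region between the TA and ΔN start sites (chr16:25779708-25780633) had 35.1 and 33.7 CPM per kb (-0.06, -0.14 to 0.03), and its counting interval spans 0 while the ΔN promoter, whose start site lies 21.7 kb downstream, was about 2-fold lower. Its centre is shown because its change lay within counting error, with a KLF, an AP-2 and a GRHL match in capitals.
Trp63_20: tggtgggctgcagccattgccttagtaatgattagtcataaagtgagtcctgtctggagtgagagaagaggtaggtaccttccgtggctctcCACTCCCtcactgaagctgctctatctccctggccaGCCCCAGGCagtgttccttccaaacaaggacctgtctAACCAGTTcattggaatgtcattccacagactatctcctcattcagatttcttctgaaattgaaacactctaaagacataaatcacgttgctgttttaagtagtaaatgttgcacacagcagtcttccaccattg
For the other 8 genes the change in the strongest distal region lay between -0.50 at Klf4 and 0.50 at Grhl1 and Tfap2c. The Grhl1 region, in the gene's own intron, went from 21.7 to 30.7 CPM per kb (0.50, 0.41 to 0.60), opposite to the promoter of the gene. At Grhl3, Zfp750 and Klf5 it was lower (-0.29, -0.12 and -0.32), and at Ovol1 and Tfap2a the interval spanned 0 (0.10 and 0.01).

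Motifs were counted in the central 300 bases of each distal region, on both strands. AP-1 matches were in 20 of the 40 regions that were 2-fold higher (50%, exact interval 33.8 to 66.2), in 1 of the 20 that were 2-fold lower (5.0%) and in 15.2% of the other 132. Genome-wide the shares were 58.2% of higher and 6.32% of lower regions, so the contrast at these genes was close to that of distal regions in general. AP-2 matches were in 7 of the 20 lower regions (35.0%, 15.4 to 59.2), against 9.49% of all lower regions, and in 2 of the 40 higher ones (5.0%, against 8.91%). The 7 regions lay at Tfap2c, Grhl3, Zfp750, Grhl2 and Trp63, with 3 of them at Tfap2c itself. Regions of the same gene need not be independent and several motif shares were compared, so the interval may be too narrow. GRHL matches were in 3 of the 20 lower regions (15%, 3.21 to 37.9, against 6.59% of all lower regions) and in 3 of the 40 higher ones (7.5%, against 6.34%). KLF matches were in 5 of the 20 (25%, against 20.2%) and in 9 of the 40 (22.5%, against 20.9%). The p53-family response element, with up to 2 mismatches, was in 4 of the 192 regions (2.08%, against 1.42% of all). A match says only that these letters are present.

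**Figure D4:**
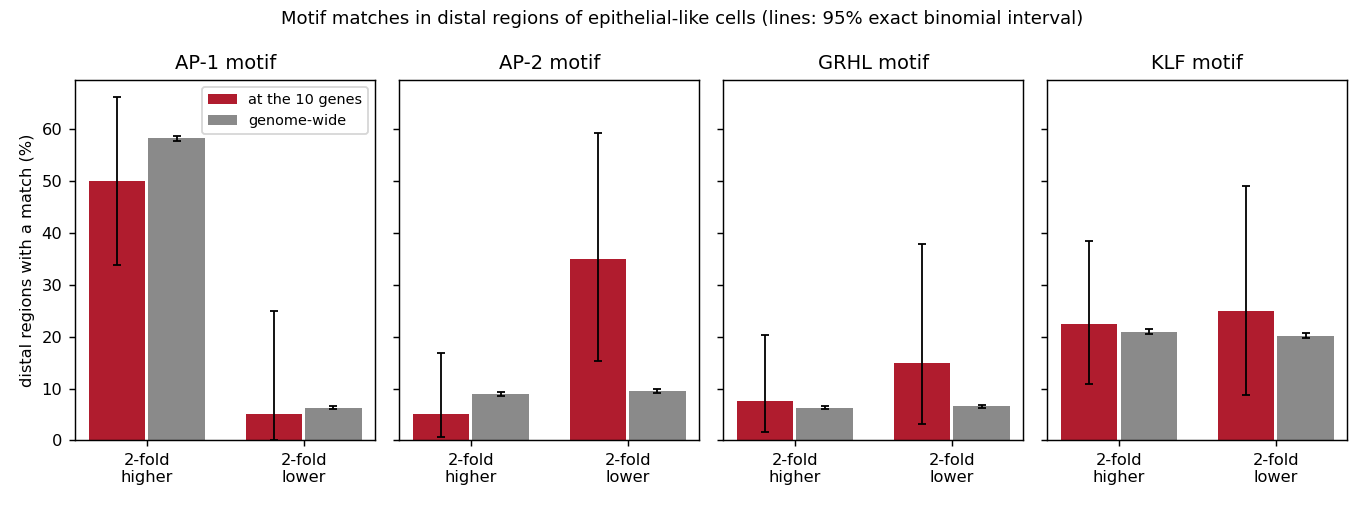
Percent of distal regions whose central 300 bases hold a motif match, for regions at least 2-fold higher or lower in MOF cKO epithelial-like cells, at the 10 genes (red, n = 40 and 20) and genome-wide (grey), with lines for 95% exact binomial intervals. AP-1 matches are at 50% and 5.0% at the 10 genes and 58.2% and 6.32% genome-wide, and AP-2 matches are at 35.0% of the lower regions against 9.49%.

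Fibroblast-like cells, in which K14Cre is not expected to act, served as the comparison. The promoters there had a median change of 0.01 (-0.03 over all 16055 promoters; in sites per cell -0.27 and -0.31), with 5 of 10 lower (58.4% of all), 0 of 10 2-fold lower (0.785%) and 0 of 10 2-fold higher (1.84%). Klf4, Klf5, Grhl1, Tfap2a and Tfap2c changed by -0.02 to 0.05, with intervals that span 0. In sites per cell the same genes changed by -0.30 to -0.23, with intervals below 0. Trp63 had 5.93 and 3.06 CPM (-0.95, -1.37 to -0.56), but nearly all of this came from the upstream TA region, with 227 and 169 sites (-1.07), since the ΔN region had 8 and 21 sites. With a promoter window of 1000 bp the Trp63 change was -0.08. By cluster, with the main window, Trp63 had 0.92 (Control) and 2.54 CPM (MOF cKO) in cluster 4, 3.28 and 0.973 in cluster 7, and 8.18 and 6.60 in cluster 8. Ovol1 had 2.52 and 3.93 CPM (0.64, 0.15 to 1.14), from 100 and 244 sites. By cluster it had 5.06 (Control) and 4.45 CPM (MOF cKO) in cluster 4, 2.16 and 4.77 in cluster 7, and 2.25 and 1.82 in cluster 8. Cluster 4 held 77 Control and 471 MOF cKO cells and cluster 8 held 342 and 76. The part of this makeup in the Trp63 and Ovol1 values was not tested.

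The classes differed in which of these promoters were open. In Control the epithelial-like level was 30.2-fold the fibroblast-like level at Zfp750, 9.61-fold at Ovol1, 7.77-fold at Grhl2, 6.24-fold at Grhl3 and 4.43-fold at Trp63. In MOF cKO these ratios were 30.03, 5.03, 5.798, 3.999 and 4.08. The Zfp750 ratios rest on 19 and 32 fibroblast-like sites. The Trp63 ratio sums start sites that differ in opposite directions. The ΔN region was 125-fold more open in epithelial-like cells of Control (2969 against 8 sites, log2 6.97, 5.61 to 8.85) and 35.8-fold in MOF cKO (2510 against 21 sites, log2 5.16, 4.25 to 6.10), while the TA region was 6.16-fold and 7.83-fold less open in epithelial-like cells. At Klf5 the ratio was 1.47 in Control and 0.996 in MOF cKO, and at Klf4 (0.853 and 0.626) and Grhl1 (0.925 and 0.694) the fibroblast-like cells were the more open ones in both libraries, although in Control the interval of the log2 ratio for Grhl1, -0.23 to 0.00, reached 0. With CPM the ratio was smaller in MOF cKO for each gene, and by the least for Zfp750. This depended on the total. In sites per cell Trp63 changed by -0.89 (epithelial-like) and -1.23 (fibroblast-like), and Zfp750 by 0.27 and -0.17. Those ratios were thus larger in MOF cKO, while that of Klf5 (-0.33 and -0.23) stayed smaller. The median over all promoters changed by -0.40 (epithelial-like) and -0.03 (fibroblast-like) in CPM, so with that total a smaller ratio was also the background direction. In sites per cell these medians were -0.23 and -0.31, which is the opposite direction. The share of all promoters with a smaller ratio was not counted. In immune-like cells, with 46 and 281 cells, Zfp750 had 2 and 4 sites and Grhl2 6 and 28, whereas Klf4 had 81.0 and 76.9 CPM. Cluster 13, left unnamed and led by Gjc3, Car6 and Gpr17, had 122 CPM at Tfap2a in 30 Control cells and 81.2 CPM in 55 MOF cKO cells, the highest level outside the epithelial-like class.

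Distal regions in fibroblast-like cells had a median change of 0.17 (0.05 over all), with 29 of 169 at least 2-fold higher, or 17.2% (12.3% of all), and 9 at least 2-fold lower, or 5.33% (7.96% of all). In sites per cell the split was 20 higher and 23 lower, against 7.71% and 13.9% of all. Of the 29, 13 lay at Trp63, which held 26 of the 169 regions. Summed over the Trp63 distal regions, fibroblast-like cells had 24.7 CPM in Control and 58.2 CPM in MOF cKO (1.23, 1.09 to 1.38), while the other sums changed by -0.47 (Ovol1) to 0.46 (Klf5). The largest single source was an intronic region 63.2 kb from the 5′ start site (chr16:25746544-25747454), with 385 and 1565 sites, or 10.7 and 27.7 CPM per kb (1.38, 1.14 to 1.61). In epithelial-like cells the same region was lower in MOF cKO, at 24.5 and 17.0 CPM per kb (-0.53). The Trp63 sum differed between fibroblast-like clusters. In cluster 4 the libraries had 73.1 (Control) and 76.7 CPM (MOF cKO), in cluster 7 20.2 and 55.7, and in cluster 8 17.97 and 38.02. Cluster 4 had 77 cells of Control and 471 of MOF cKO, and cluster 6, at 42.4 CPM, was nearly all MOF cKO, so the makeup of the class moved with the sum, and its part in the difference was not tested. Without the 5% of cells of each library with the highest doublet scores the sum was 23.8 and 57.2 CPM (1.26). Of the 169 distal regions with at least 20 sites in both classes, 12 were at least 2-fold higher in both, or 7.10% (5.5% of all such regions), and 7 of the 12 lay among the 26 regions of Trp63. They made up 33.3% of the members higher in epithelial-like and 41.4% of those higher in fibroblast-like cells, against 29.7% and 44.6% genome-wide. The 11 epithelial marker promoters summed to 75.7 CPM in Control and 77.8 CPM in MOF cKO fibroblast-like cells (0.04, -0.05 to 0.13), and none was at 0. Much of the Control sum was Krt10 at 29.9 CPM, which had 22.3 CPM in epithelial-like Control cells. The sum is thus a weak gauge of epithelial signal. In fibroblast-like cells Krt14 (56 and 256 sites, 1.55, 0.95 to 2.19) and Perp (0.74) were higher in MOF cKO and Epcam (-0.65) was lower, while the other 8 had intervals that span 0. By cluster the marker sum was 70.3 to 82.9 CPM in either library, and its part in the Trp63 and Ovol1 values of fibroblast-like cells was not tested.

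**Figure D5:**
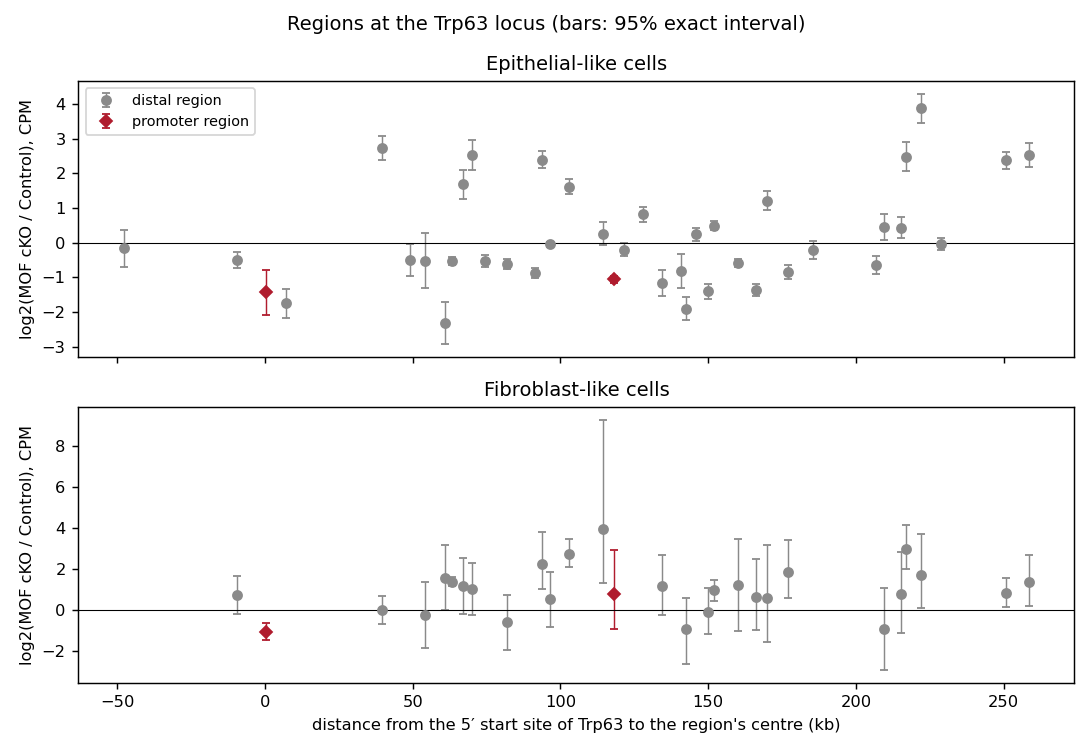
Change in accessibility, log2(MOF cKO / Control) of CPM with 95% exact intervals, of the regions at the Trp63 locus with at least 20 sites, by distance of the region's centre from the 5′ start site in kb, for promoter (red diamonds) and distal regions (grey), in epithelial-like (top) and fibroblast-like cells (bottom). In epithelial-like cells the ΔN promoter at 118 kb lies at -1.06 among distal regions that range from -2.31 to 3.88, and in fibroblast-like cells most distal regions lie above 0.

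Lists of other epidermal genes were read beside the members. Of 20 further epidermal regulators, all with a promoter value, 16 were lower in epithelial-like cells with a median of -0.31, against 84.8% of all promoters, 0 were 2-fold lower (2.31% of all) and 1 was 2-fold higher (2.29%). The lowest was Tfap2b, another AP-2 gene, at 20.1 and 10.9 CPM (-0.89, -1.01 to -0.77). The highest was Ehf, an epithelial ETS factor, at 5.95 and 19.5 CPM (1.71, 1.55 to 1.88). Of 24 structural and barrier genes of the epidermis, 18 were lower with a median of -0.40, with 1 each past 2-fold in either direction. These were Fras1, a basement membrane protein, at 61.3 and 29.3 CPM (-1.07, -1.14 to -0.997), and Ivl, which encodes involucrin of the cornified envelope, at 2.19 and 5.71 CPM (1.38, 1.099 to 1.66). In fibroblast-like cells 9 of the 20 and 14 of the 24 were lower (58.4% of all promoters), with medians of 0.04 and -0.05. None of the 20 passed 2-fold there, and of the 24 Krt14 was higher (1.55) and Abca12 lower (-1.33, -2.73 to 0.18). Of all promoters in that class 1.84% were 2-fold higher and 0.785% 2-fold lower. Besides Krt14, of the 24 Perp (0.74), Cldn4 (0.69), Tgm1 (0.57), Ppl (0.54) and Aloxe3 (0.38) had intervals above 0 in that class, and Pkp1 (-0.54) and Itga6 (-0.27) had intervals below 0.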

How the data were processed

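The deposited peak by barcode matrices were made by the authors with cellranger-atac 2.0.0 (file header) on mm10, with a peak list per library; Cell Ranger ARC also stands in the submitters' processing notes. The deposited values were raw counts of cut sites, not normalized. Even values made up 88.8% (Control) and 91.6% (MOF cKO), so intervals were computed on fragments (sites divided by 2).

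Peaks of both lists that overlapped by 1 bp were merged, and regions with a peak in each library were used. Barcodes with at least 1000 sites (60 Control barcodes fell below) were embedded by weighted singular value decomposition of 50000 autosomal regions (30 components, less those correlated with depth above 0.5) and clustered with 20 neighbours at Leiden resolution 1. Clusters were named where at least 3 markers of a class were 2-fold up (pseudocount 5 CPM). Doublets were scored against simulated pairs and removed only in an alternative. Promoters were regions within 500 bp of any GENCODE start site. Changes are log2 ratios of CPM for features with at least 20 sites, with exact Poisson, binomial or conditional binomial 95% intervals. The computation was tested on simulated data. The alternatives tried were other totals, promoter windows, flanks, start sites, cell filters, thinning and clustering. Software was Python 3.11.15 with numpy 2.4.6 and pandas 2.3.3, leidenalg 0.10.2 on python-igraph 0.11.9, scikit-learn 1.9.0 with scipy 1.17.1, and matplotlib 3.10.9.

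The members, lists and comparisons were chosen with earlier results of these data known. Named were the 10 members, each start site region of Trp63, the strongest distal region of each gene in Control, the 5 largest losses and 5 largest gains among distal regions (at least 500 sites), and the lowest and highest gene of each further list. Other single regions and clusters in the text, such as the neighbours of the Tfap2a and Ovol1 regions, the values within cluster 5, the Trp63 region of fibroblast-like cells, the listed genes named in that class and the unnamed cluster 13, were picked after their values were seen.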

Additional observations from a re-analysis of the deposited data

Results flagged for a closer look

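The signs of the Ovol1 changes were opposite in epithelial-like and fibroblast-like cells. Its promoter changed by -0.30 in the former and by 0.64 in the latter, beside medians of -0.40 and -0.03 over all promoters. Its summed distal regions changed by 0.14 and by -0.47, beside 0.25 and 0.03 over all distal regions summed. Set against these backgrounds, the promoter lay higher and the distal sum lower in both classes. Each of the 4 counting intervals of Ovol1 excluded 0, but the difference between the classes was not tested. Within fibroblast-like clusters 4 and 8 its promoter was lower in MOF cKO, and in cluster 7 it was higher. In clusters 4, 7 and 8 the distal sum was 9.43, 16.4 and 36.8 CPM in Control and 12.3, 15.7 and 29.6 CPM in MOF cKO. The makeup of the class differed between the libraries, and its part was not tested. The fibroblast-like promoter value rests on 100 and 244 sites. It was 0.36 in sites per cell and 0.02 with each cell thinned to 5000 sites, and both intervals spanned 0. The epithelial-like distal sum was -0.01 when scaled to each library's own full peak list. In fibroblast-like cells 3 intergenic regions 33.1 to 39.8 kb from the Ovol1 start site went from 229 to 190, from 167 to 123 and from 276 to 185 sites (-0.92, -1.09 and -1.22).

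The summed distal regions of Grhl3 changed by -0.04 in epithelial-like and by 0.13 in fibroblast-like cells, and this difference was not tested either. Several of these regions lie inside the neighbouring gene Stpg1. Each sign depended on the total, since the epithelial-like sum was 0.11 with median-of-ratios factors and the fibroblast-like sum was -0.15 in sites per cell.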

How the results depend on the processing

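No paired analysis was possible because each genotype had 1 library, and for the same reason no replicate could be left out. In epithelial-like cells the count of lower promoters was 9 or 10 under each of 12 alternatives. The promoter median stayed below 0 under all 12, at -0.58 scaled to each library's own full peak list, -0.27 with median-of-ratios factors and -0.25 in sites per cell. In fibroblast-like cells it was -0.27 in sites per cell. The cause of these shifts is the total itself, which moves all promoters together. Distal regions 2-fold lower numbered 13 of 192 in sites per cell (9.78% of all distal regions). They numbered 37 of 302 with a flank of 100 kb (13.9% of all distal regions), and those 2-fold higher 24 of 120 with a flank of 20 kb (18.6% of all), since the flank sets how many regions are counted. The distal medians ranged from -0.19 to 0.17 in epithelial-like and from -0.11 to 0.17 in fibroblast-like cells, so their sign was not stable. Of the values of single genes, 183 stayed within their counting interval and 46 did not, and none whose interval excluded 0 changed sign. Thinning left out 304 Control and 74 MOF cKO cells. Leaving out the shallow clusters 9 and 15, an alternative chosen after seeing the data, moved no count. Counting unnamed clusters with mostly epithelial markers as epithelial was not run, since there was no such cluster. Depth limits the fibroblast-like values of Zfp750 (19 and 32 sites) and of the ΔN region of Trp63 (8 and 21 sites).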
